A study of Mus musculus with 4 samples.

Results

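The genes described here are 10 regulators of the G1 phase of the cell cycle: the D-type cyclins Ccnd1, Ccnd2 and Ccnd3, their kinase partners Cdk4 and Cdk6, the kinase inhibitors Cdkn1a, Cdkn1b, Cdkn2c and Cdkn2d, and the retinoblastoma gene Rb1. They were taken by name, and all 10 were among the 16600 genes of the deposited table. The study asked how loss of 1 copy of Setd5, a gene for a SET domain chromatin regulator, alters cortical neurons. Cells were sorted from the cortex of C57BL/6J fetuses at E18.5 as CD24+ CD45-, which enriches neuronal cells and depletes blood cells. There were 2 Setd5+/+ fetuses (libraries WT3 and WT6) and 2 Setd5+/- fetuses (libraries Het5 and Het9) from a Setd5-GFP mouse line, whose heterozygotes the study used as knockouts of 1 copy. The labels name no treatment and no Cre driver in either group. Each fetus gave 1 library of the 10x 3′ kind, in which a unique molecular identifier (UMI) marks each captured transcript. Together the libraries held 6562 cells with 8205330 to 11742956 UMIs per library. Of these cells, 277 carried a barcode that occurred in more than 1 library, and 224 carried one that occurred in all 4.

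Pallial cells, those of the excitatory lineage of the dorsal telencephalon, were gated by UMIs of Emx1, Eomes, Neurog2, Neurod2, Neurod6 and Tbr1. Dlx-positive cells, those of the inhibitory lineage, were gated by Dlx1, Dlx2, Dlx5 and Dlx6os1. A cell needed at least 2 UMIs of 1 list and more of it than of the other. A cell with a UMI of Top2a, which encodes a topoisomerase made mainly in S, G2 and M phase, was called cycling. The gates gave 278 cycling and 3564 non-cycling pallial cells, and 787 cycling and 1130 non-cycling Dlx-positive cells, while 803 cells fell in neither gate. Cycling pallial cells were the smallest group, with 43 to 104 cells per library. Depth differed between the groups, with a median of 7623 UMIs per cell in cycling pallial, 5828 in non-cycling pallial, 7016 in cycling Dlx-positive and 4297 in non-cycling Dlx-positive cells. The non-cycling call is not the same as having left the cycle, since 682 of the 1130 non-cycling Dlx-positive cells and 1917 of the 3564 non-cycling pallial cells held a UMI of other S-phase or mitosis genes. As a check of the sort, the neuronal genes Tubb3, Stmn2, Dcx and Cd24a summed to 46.5 counts per 10000 UMIs in non-cycling pallial and 71.2 in non-cycling Dlx-positive cells. The sums were lower in cycling cells, at 23.9 in pallial and 34.8 in Dlx-positive cells, so cycling and non-cycling cells differed in neuronal genes as well. The part of this in the differences that follow was not tested beyond the alternatives. Ptprc, the gene of CD45, averaged at most 0.0117 in any group and reached 0.0469 in 1 library.

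In G1, D-type cyclins bind CDK4 or CDK6, and these complexes phosphorylate the retinoblastoma protein, which then releases E2F transcription factors and allows entry into S phase. The INK4 inhibitors, among them p18 (Cdkn2c) and p19 (Cdkn2d), bind CDK4 and CDK6 directly. The Cip/Kip inhibitors p21 (Cdkn1a), p27 (Cdkn1b) and p57 (Cdkn1c) act on a wider range of cyclin and kinase complexes. In the developing forebrain Ccnd1 and Ccnd2 are known as the main D-type cyclins of progenitors, and p27 and p57 as inhibitors that accompany cell cycle exit.

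Values are means over the cells of a library in counts per 10000 UMIs of the cell, given in the order WT3, WT6, Het5 and Het9. Differences are on the scale of log2(mean + 0.1) with their standard error (SE), tested by limma across all genes with a mean of at least 0.1. P-values were adjusted by the method of Benjamini and Hochberg, and a gene was called under 0.05. The libraries are the replicates (n = 4, or 2 per genotype). Whole-series totals of the members ranged from 695 UMIs for Cdkn1a to 47521 for Ccnd2. Cdkn1a, a target of p53 known for its role in DNA damage responses, was seen in 249 cells (3.79%) and passed the limit on low values in none of the cycling or lineage comparisons. Its level was 0.0233, 0.131, 0.101 and 0.0610 in cycling pallial cells and 0.0510, 0.101, 0.128 and 0.152 in cycling Dlx-positive cells.

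The comparison of cycling with non-cycling pallial cells showed higher levels of all 3 D-type cyclins, of both kinases and of both INK4 inhibitors in the cycling cells. Of the 10 members, 9 were tested and 7 were called, all higher in cycling cells. Over all genes 33.3% were called, and 49.5% of the called genes were higher. The median difference was 1.02 over the 9 members and -0.03 over all 8068 genes. In both lineages Cdkn2c reached the limit on low values through the cycling cells, so its entry into the test and its call are not independent.

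Ccnd2 measured 10.4, 8.44, 8.15 and 9.27 in cycling pallial cells and 4.41, 4.63, 4.67 and 3.94 in non-cycling ones. Every cycling value lay above every non-cycling value, and the difference was 1.02 (SE 0.0642, adjusted p = 1.6e-14). Over 16 alternatives, among them cells with Eomes or Neurog2 on both sides, the Ccnd2 difference ranged from 0.57 to 1.22 and kept its call. Ccnd1, the cyclin known from radial glia, measured 0.592, 0.407, 0.427 and 1.27 against 0.135, 0.177, 0.156 and 0.133. The groups did not overlap, and Het9 stood highest, with 46 UMIs in 12 of its 43 cells.
The difference for Ccnd1 was 1.51 (SE 0.192, adjusted p = 1.4e-07), and it was 1.16 without Het9. Ccnd3, the third D-type cyclin, measured 0.405, 0.334, 0.328 and 0.265 against 0.137, 0.167, 0.172 and 0.120, which gave a difference of 0.79 (SE 0.167, adjusted p = 0.00034). With cells thinned to 3000 UMIs each, Ccnd3 kept its direction at 0.56 but lost the call (adjusted p = 0.138).

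Among the kinases, Cdk6 measured 1.88, 1.30, 1.90 and 1.33 in cycling and 0.700, 0.479, 0.705 and 0.689 in non-cycling pallial cells. This was a difference of 1.19 (SE 0.111, adjusted p = 1.9e-10) with no overlap of the groups. Cdk4 changed far less. It measured 10.5, 10.2, 10.3 and 10.4 in cycling and 9.62, 9.70, 9.12 and 8.86 in non-cycling cells, a difference of 0.15 (SE 0.0460, adjusted p = 0.012). Its call was lost in 7 of the 16 alternatives, among them cells called cycling by Mki67 (0.01, adjusted p = 0.885).

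In Dlx-positive cells 6 of the 9 tested members were called, all higher in cycling cells, where 43.6% of all genes were called and 42.3% of the called genes were higher. The members' median difference was 0.29, against -0.06 over all 7710 genes. Ccnd2 measured 32.1, 35.9, 38.7 and 46.7 in cycling and 20.1, 16.9, 25.7 and 31.8 in non-cycling Dlx-positive cells. Each library was higher in its cycling cells, the lowest cycling value lay just above the highest non-cycling one, and the difference was 0.73 (SE 0.0530, adjusted p = 1.9e-11). Cdk4 measured 12.03, 12.3, 12.2 and 11.6 against 10.3, 9.73, 9.86 and 9.38, a difference of 0.29 (SE 0.0422, adjusted p = 3.7e-06). Cdk6 measured 1.23, 0.925, 1.12 and 0.887 against 0.999, 0.875, 0.593 and 0.274, a difference of 0.64 (SE 0.141, adjusted p = 0.00062). Here the groups overlapped, and most of the difference lay in the Setd5+/- libraries. Without Het9 the Cdk6 difference was 0.39 (adjusted p = 0.015). Its call was lost after thinning (0.37, adjusted p = 0.060) and with cycling cells chosen by Mki67 (0.20, adjusted p = 0.168).

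Ccnd1 and Ccnd3 were not called in Dlx-positive cells. Ccnd1 measured 0.264, 0.545, 0.473 and 0.285 in cycling and 0.299, 0.485, 0.530 and 0.397 in non-cycling cells, with a difference of -0.12 (SE 0.125, adjusted p = 0.45). The value depended on which cells served as the non-cycling side. Against Dlx-positive cells without any UMI of the S-phase and mitosis genes, which measured 0.163, 0.190, 0.127 and 0.0691, Ccnd1 was higher in cycling cells by 1.04 (adjusted p = 0.00031). Ccnd3 had a difference of 0.21 (SE 0.139, adjusted p = 0.225). Against the cells without S-phase and mitosis UMIs, Ccnd3 was higher in cycling cells by 0.73 and called (adjusted p = 0.0096).

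**Figure D1:**
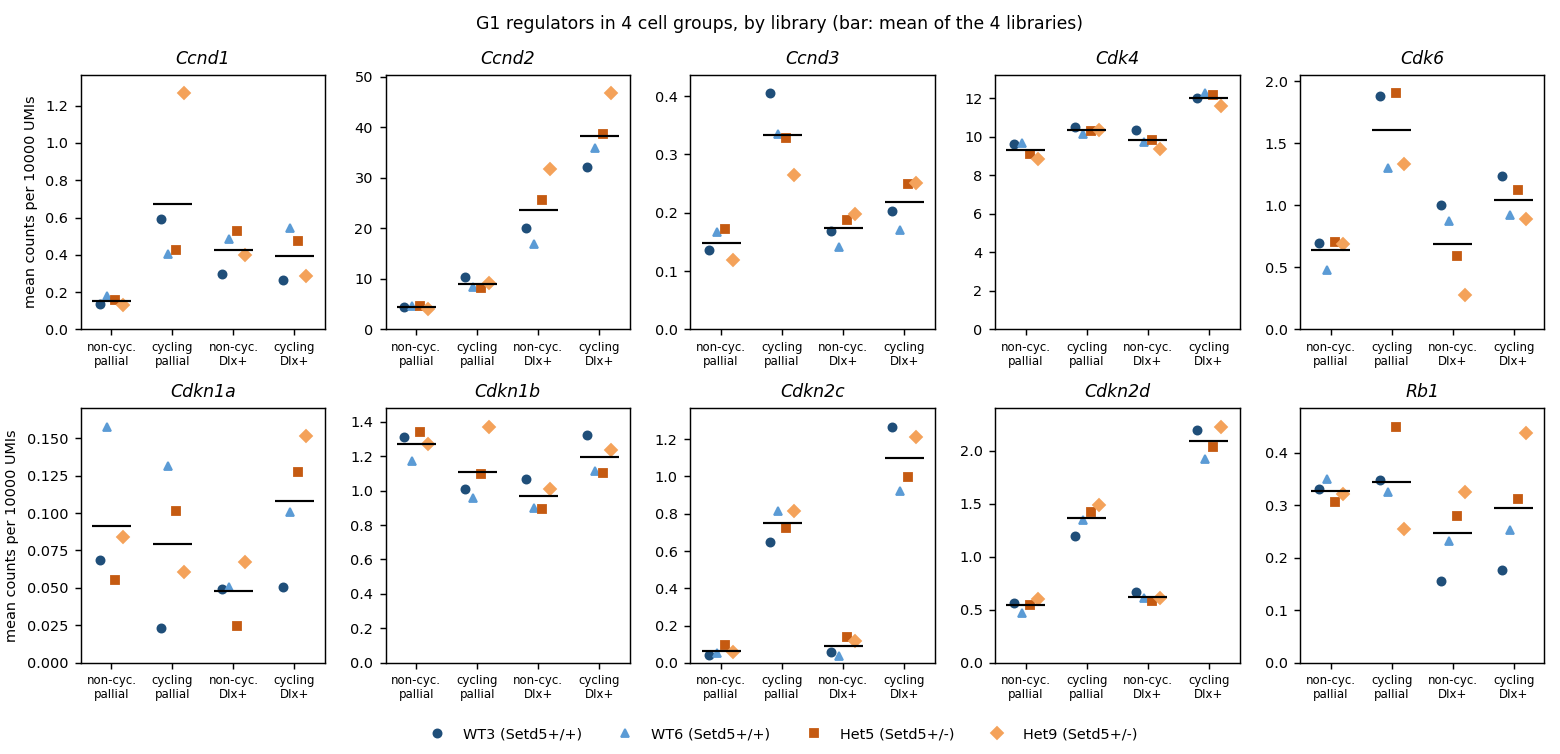
Mean counts per 10000 UMIs (y axis, from 0) of the 10 genes in the 4 cell groups (x axis), with 1 point per library and a bar at the mean of the 4 libraries. Cdkn2c and Cdkn2d separate cycling from non-cycling cells in both lineages, Ccnd2 separates the lineages, and the Cdk4 values all lie between 8.86 and 12.3.

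The inhibitors did not fall as a group in cycling cells. Both INK4 genes were higher there in both lineages, and Cdkn2c had the largest difference of the 9 tested members in each lineage. Cdkn2c measured 0.649, 0.813, 0.724 and 0.815 in cycling and 0.0437, 0.0539, 0.0977 and 0.0597 in non-cycling pallial cells, a difference of 2.38 (SE 0.162, adjusted p = 1.1e-13). In Dlx-positive cells it measured 1.27, 0.923, 0.998 and 1.21 against 0.0607, 0.0370, 0.139 and 0.119, a difference of 2.69 (SE 0.140, adjusted p = 2.0e-14). At an equal depth of 3000 UMIs, Cdkn2c was seen in 29.0% of cycling and 2.71% of non-cycling Dlx-positive cells, and without thinning in 48.3% and 3.36%. Genes of the other lineage's gate were seen at a like depth in 6.36% (Neurod6, non-cycling Dlx-positive) and 2.58% (Dlx6os1, non-cycling pallial) of cells. The share of 2.71% alone therefore does not tell expression from background. Among non-cycling Dlx-positive cells Cdkn2c measured 0.102, 0.0662, 0.204 and 0.154 in those with S-phase or mitosis UMIs, and 0, 0, 0 and 0.0632 in those without.

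Cdkn2d measured 1.19, 1.35, 1.42 and 1.49 in cycling and 0.566, 0.472, 0.543 and 0.599 in non-cycling pallial cells, a difference of 1.18 (SE 0.114, adjusted p = 4.3e-10). In Dlx-positive cells it measured 2.19, 1.92, 2.03 and 2.22 against 0.664, 0.613, 0.587 and 0.610, a difference of 1.61 (SE 0.0862, adjusted p = 3.6e-14). Unlike Cdkn2c, it was well above 0 in every non-cycling group. Cdkn2c and Cdkn2d kept both direction and call in each of the 16 alternatives in pallial and 15 in Dlx-positive cells.

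The promoters of these 2 genes are shown because both rose in both lineages. Promoter sequence, from 250 bases before to 50 after the start, was taken from RefSeq on GRCm38.p6, where 7 of the 10 members had 10 entries. A search on both strands for the 7-letter E2F-type words, namely TTCCCGC and the word TTGGCGC as well as the word TTCGCGC and the word TTGCCGC, found 1 match among these 10 entries. It lay 25 bases before a start of Cdkn2c, and 9.57% of all 32851 promoters in the table held at least 1 of these words. The 100 bases before the RefSeq start follow, 5′ to 3′ on the minus strand in both cases, with the matched word in capitals. The Cdkn2c window is at chr4:109666757-109666856 and that of Cdkn2d at chr9:21291210-21291309. Both windows lie within the GENCODE M21 spans of these genes, which begin further upstream, at 109667189 for Cdkn2c and 21291407 for Cdkn2d. A match describes letters only, and a window without a match says nothing about binding.
Cdkn2c: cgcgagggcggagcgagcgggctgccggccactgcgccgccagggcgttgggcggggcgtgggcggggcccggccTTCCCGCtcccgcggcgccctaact
Cdkn2d: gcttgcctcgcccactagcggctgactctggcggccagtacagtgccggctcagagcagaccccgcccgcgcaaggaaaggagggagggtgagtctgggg

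Cdkn1b, which encodes p27, had small differences of opposite sign in the 2 lineages, of which 1 was called. It measured 1.01, 0.959, 1.10 and 1.37 in cycling and 1.31, 1.17, 1.34 and 1.27 in non-cycling pallial cells, with a difference of -0.19 that was not called, although it was -0.29 and called without Het9 (adjusted p = 0.049) and against non-cycling cells without S-phase and mitosis UMIs (adjusted p = 0.034). In Dlx-positive cells it measured 1.32, 1.12, 1.10 and 1.24 against 1.07, 0.897, 0.893 and 1.01, a difference of 0.28 (SE 0.0870, adjusted p = 0.011), and 2 of the 15 alternatives lost that call. Rb1 measured between 0.156 and 0.450 in the 4 groups and had differences of 0.04 (SE 0.157) in pallial and 0.16 (SE 0.134) in Dlx-positive cells, with adjusted p = 0.884 and 0.338.

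Whether cycling cells differed from non-cycling ones unequally in the 2 lineages was tested directly, as the difference in Dlx-positive minus that in pallial cells of the same library. Ccnd1, Ccnd2 and Cdkn1b were called among the 9 tested members, where 6.98% of all 7991 genes were called. Besides Cdk6, given below, calls were gained by Cdkn2d in 4 of 14 alternatives, by Cdk4 in 2, and by Ccnd3 and Cdkn2c in 1 each. For Ccnd1 the value was -1.63 (SE 0.247, adjusted p = 4.3e-05), and it was -1.20 without Het9. Against non-cycling cells without S-phase and mitosis UMIs it was -0.76 and no longer called (adjusted p = 0.092), and with no limit on low values its call was lost too (adjusted p = 0.125). For Cdkn1b the value was 0.47 (SE 0.136, adjusted p = 0.032), with the call lost in 5 of 14 alternatives: without WT3, WT6 or Het5 (adjusted p = 0.134, 0.140 and 0.138), with no limit on low values (adjusted p = 0.137) and after thinning (adjusted p = 0.231). For Ccnd2 it was -0.30 (SE 0.0851, adjusted p = 0.032), and this call did not hold in 10 of 14 alternatives. Its value was -0.06 with a gate of 1 UMI (adjusted p = 0.736), -0.15 without cells positive for both gate lists (adjusted p = 0.413) and 0.20 against the stricter non-cycling cells. It was also lost without WT3, Het5 or Het9 (-0.21, -0.33 and -0.17, adjusted p = 0.250, 0.070 and 0.270). Cdk6 was not called at -0.55 (SE 0.193, adjusted p = 0.091) but was called, in the same direction, in 4 of 14 alternatives, namely with summed UMIs (-0.96), without Het9 (-0.91), by Mki67 (-0.65) and with pseudocount 1 (-0.36), and was 0.50 and not called against the stricter non-cycling cells.

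**Figure D2:**
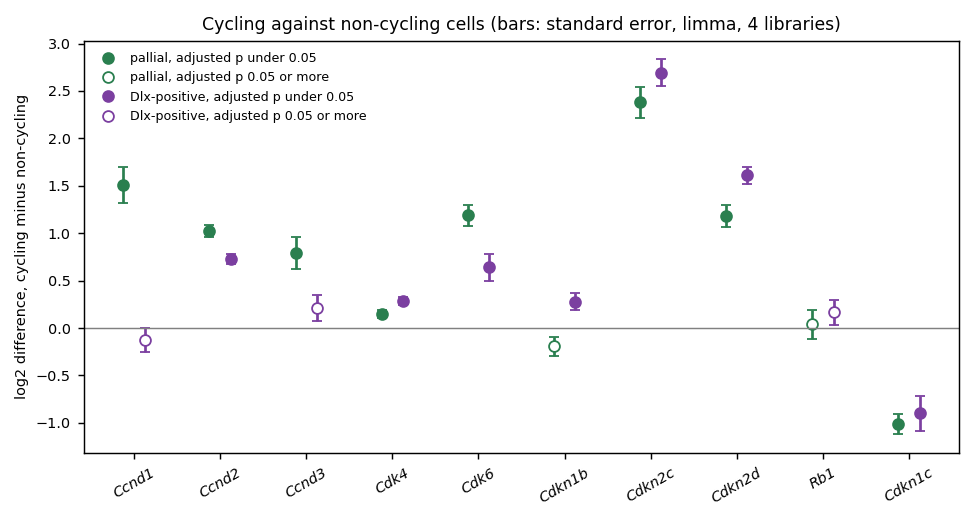
Log2 difference between cycling and non-cycling cells (y axis) for the 9 tested members and Cdkn1c (x axis), in pallial and Dlx-positive cells, with bars for the standard error and filled points for adjusted p under 0.05. Cdkn2c lies at 2.38 and 2.69, Ccnd1 at 1.51 in pallial but -0.12 in Dlx-positive cells, and Cdkn1c is below 0 in both.

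The other genes of the pathway were read from a list of 30 G1 and RB-E2F genes. In pallial cells 24 of them were tested, 16 were called higher in cycling cells and 1 lower, where 33.3% of all genes were called. Of the 16, 10 were under the limit on low values in non-cycling cells, reached the test through the cycling cells and so had to differ, and among the other 14 tested genes 6 were called higher and 1 lower. In Dlx-positive cells 25 were tested, 19 were called higher and 1 lower, where 43.6% of all genes were called. Of the 19, 7 reached the test through the cycling cells, and among the other 18 tested genes 12 were called higher and 1 lower. The largest differences in pallial cells were those of Ccna2, cyclin A2 (3.43), Cks1b, a kinase subunit (2.14), Ccne2, cyclin E2 (1.81), the repressor E2f8 (1.63) and the transcription factor Mybl2 (1.63). In Dlx-positive cells they were Ccna2 (3.61), Cks1b (2.00), Mybl2 (1.86), E2f8 (1.73) and E2f7 (1.73). Apart from Cks1b in both lineages and Ccna2 in Dlx-positive cells, these genes reached the test through the cycling cells. The single gene called lower in both lineages was Cdkn1c, which encodes p57. It measured 1.18, 0.846, 1.15 and 1.02 in cycling and 1.84, 2.56, 2.36 and 2.11 in non-cycling pallial cells, a difference of -1.01 (SE 0.107, adjusted p = 3.2e-09). In Dlx-positive cells it measured 1.01, 0.987, 0.745 and 0.672 against 3.76, 3.13, 0.918 and 0.649, a difference of -0.90 (SE 0.182, adjusted p = 0.00024) that was not called without a library term (adjusted p = 0.058). Most of this difference lay in the Setd5+/+ libraries, and Het9 was not lower in its cycling cells. When the difference between cycling and non-cycling cells was compared between the lineages, Tfdp2, a partner of E2F factors, was the only gene of this list called, at 0.56 (adjusted p = 0.034).

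Cycling cells were further divided by whether UMIs of 8 S-phase genes (Mcm3, Mcm5, Mcm6, Pcna, Hells, Gins2, Ung and Rrm2) or of 6 mitosis genes (Mki67, Ube2c, Nusap1, Cenpf, Birc5 and Cdk1) were more frequent. No member is on either list. The division gave 301 S-phase and 471 mitosis cells in the Dlx-positive group and 115 and 118 in the pallial group, where single libraries held as few as 14. The values are given as a description, with no test.

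The 2 INK4 genes were higher in mitosis cells in both lineages, and the kinases in S-phase cells in the Dlx-positive lineage. In Dlx-positive cells Cdkn2d measured 2.74, 2.56, 2.79 and 3.002 in mitosis cells and 1.14, 0.996, 1.03 and 1.06 in S-phase cells. Cdkn2c measured 1.52, 1.16, 1.35 and 1.53 against 0.787, 0.612, 0.552 and 0.856. Both were higher in mitosis cells in 4 of 4 libraries in this lineage and in 4 of 4 among pallial cells, where the means were 2.04 against 0.998 for Cdkn2d and 1.11 against 0.620 for Cdkn2c. Cdkn1b followed them in Dlx-positive cells, with 1.57, 1.24, 1.34 and 1.46 in mitosis cells and 0.794, 0.972, 0.818 and 0.915 in S-phase cells. Among pallial cells it did so in 3 of 4 libraries.

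Cdk4 and Cdk6 showed the opposite order in Dlx-positive cells. Cdk4 measured 14.3, 14.2, 14.1 and 13.02 in S-phase cells and 11.02, 10.9, 10.7 and 10.6 in mitosis cells. Cdk6 measured 2.05, 1.10, 1.69 and 1.25 against 0.788, 0.813, 0.727 and 0.680. Ccnd1 (means of 0.578 and 0.279) and Ccnd3 (0.305 and 0.165) were also higher in S-phase cells in 4 of 4 libraries, and so was Cdkn1a (0.207 and 0.0432). Ccnd2 kept a high level in both, with means of 42.9 and 35.3. Among pallial cells Cdk4 and Cdk6 were higher in S-phase cells in 2 of 4 libraries each, so no order was seen there.

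**Figure D3:**
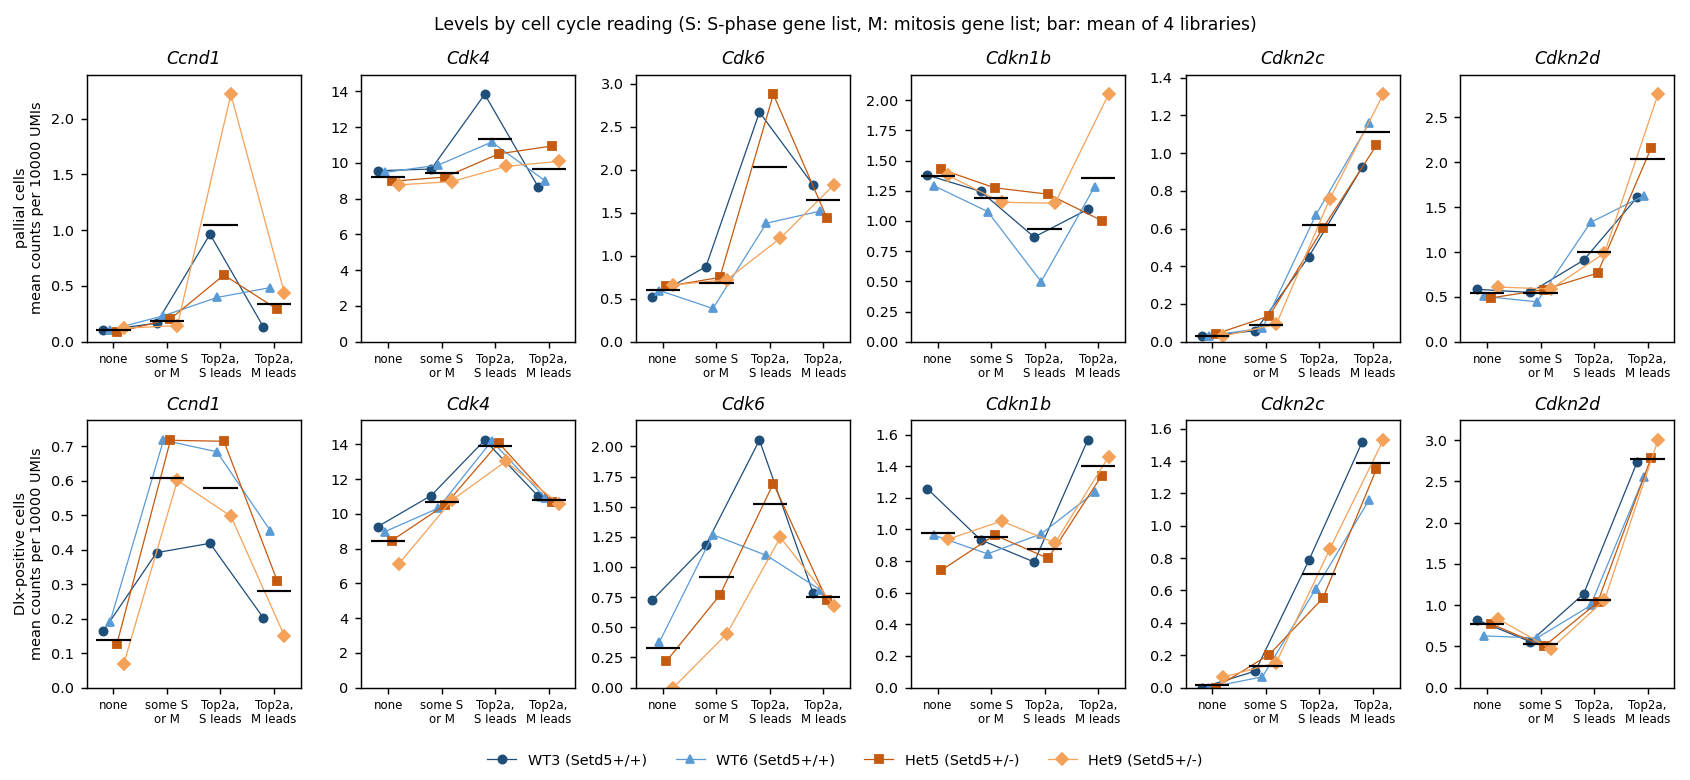
Mean counts per 10000 UMIs (y axis, from 0) of 6 genes in pallial (top) and Dlx-positive cells (bottom), from cells without Top2a, S-phase or mitosis UMIs to cycling cells led by mitosis genes (x axis), with 1 line per library and bars at the mean. Cdkn2c and Cdkn2d are highest in the mitosis cells, and Cdk4 in Dlx-positive cells peaks at a mean of 13.9 in the S-phase cells.

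The levels were then ordered over 9 classes of cells with at least 20 cells in every library. Non-cycling cells were divided into cells with radial glia genes (Slc1a3, Hes5, Sox9 and Mfge8, without Neurod2 or Neurod6 UMIs; 539 cells, of which 185 were in the pallial gate, 122 in the Dlx-positive gate and 232 in neither), pallial cells with Eomes or Neurog2 (1833), pallial cells with Bcl11b or Fezf2 (1135), other pallial cells (411), Dlx-positive cells with Lhx6 (213) and other Dlx-positive cells (602). The cycling cells were pallial cells without radial glia genes and Dlx-positive cells with and without them. Dlx-positive cells with Ebf1 and with Zic1 or Zic4, and cycling pallial cells with radial glia genes, had fewer than 20 cells in some library and are not ordered.

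Ccnd1 was highest in 2 classes of cells with radial glia genes. It measured 0.579, 1.37, 1.35 and 1.15 in the cycling Dlx-positive cells with these genes and 1.18, 1.04, 1.11 and 0.931 in the non-cycling cells with them, and these neighbors overlapped. The next class, cycling pallial cells without these genes, measured 0.320, 0.436, 0.444 and 1.16, and the remaining classes had means of 0.297 and less. The few cycling pallial cells with radial glia genes, 6 to 19 per library, measured 2.86, 0.320, 0.282 and 1.68, so in WT6 and Het5 they lay below the cycling pallial cells without these genes. Cells with Bcl11b or Fezf2, genes of deep-layer projection neurons, had the lowest mean of the 9 classes, at 0.0518, 0.0586, 0.0394 and 0.107. They overlapped with other pallial cells and with Dlx-positive cells with Lhx6. Of the 9 classes Ccnd3 was highest in the non-cycling cells with radial glia genes, at 0.484, 0.514, 0.496 and 0.468, apart from the next class at 0.393, 0.244, 0.291 and 0.212. The cycling pallial cells with radial glia genes, which are not ordered, measured 0.501, 0.600, 0.641 and 0.463.

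Ccnd2 had another order. It was highest in the cycling Dlx-positive cells without and with radial glia genes, with means of 39.2 and 34.4, and in other Dlx-positive cells at 23.0, 22.7, 31.4 and 38.7. These 3 classes overlapped, and the third lay apart from the non-cycling cells with radial glia genes at 12.01, 10.2, 12.4 and 13.2. In the pallial lineage the mean of Ccnd2 went from 9.19 in cycling cells without radial glia genes to 6.02 in non-cycling cells with Eomes or Neurog2, genes of intermediate progenitors and newborn neurons, and to 2.11 in cells with Bcl11b or Fezf2, each step without overlap between the libraries. Dlx-positive cells with Lhx6, a gene of interneurons from the medial ganglionic eminence, ranged from 4.52 to 15.6.

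Cdk6 was highest in cycling pallial cells without radial glia genes, at 1.94, 1.51, 2.09 and 1.57, and low in cells with Bcl11b or Fezf2 at 0.343, 0.160, 0.428 and 0.219, although no 2 neighbors in its order of 9 classes were apart. Of the 9 classes, Cdkn1b had its lowest mean in the non-cycling cells with radial glia genes, at 0.776, 0.762, 0.810 and 0.693. These overlapped with the Dlx-positive cells with Lhx6 at 1.12, 1.16, 0.680 and 0.370. Its highest mean of the 9 classes, 1.32, was in cells with Bcl11b or Fezf2. Of the 9 classes, Cdkn2d was also lowest in the non-cycling cells with radial glia genes, at 0.304, 0.275, 0.191 and 0.255, apart from the next class at 0.510, 0.403, 0.587 and 0.571. The order of Rb1 ran from a mean of 0.375 in cells with Bcl11b or Fezf2 to 0.161 in the non-cycling cells with radial glia genes, with overlap between all neighbors.

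**Figure D4:**
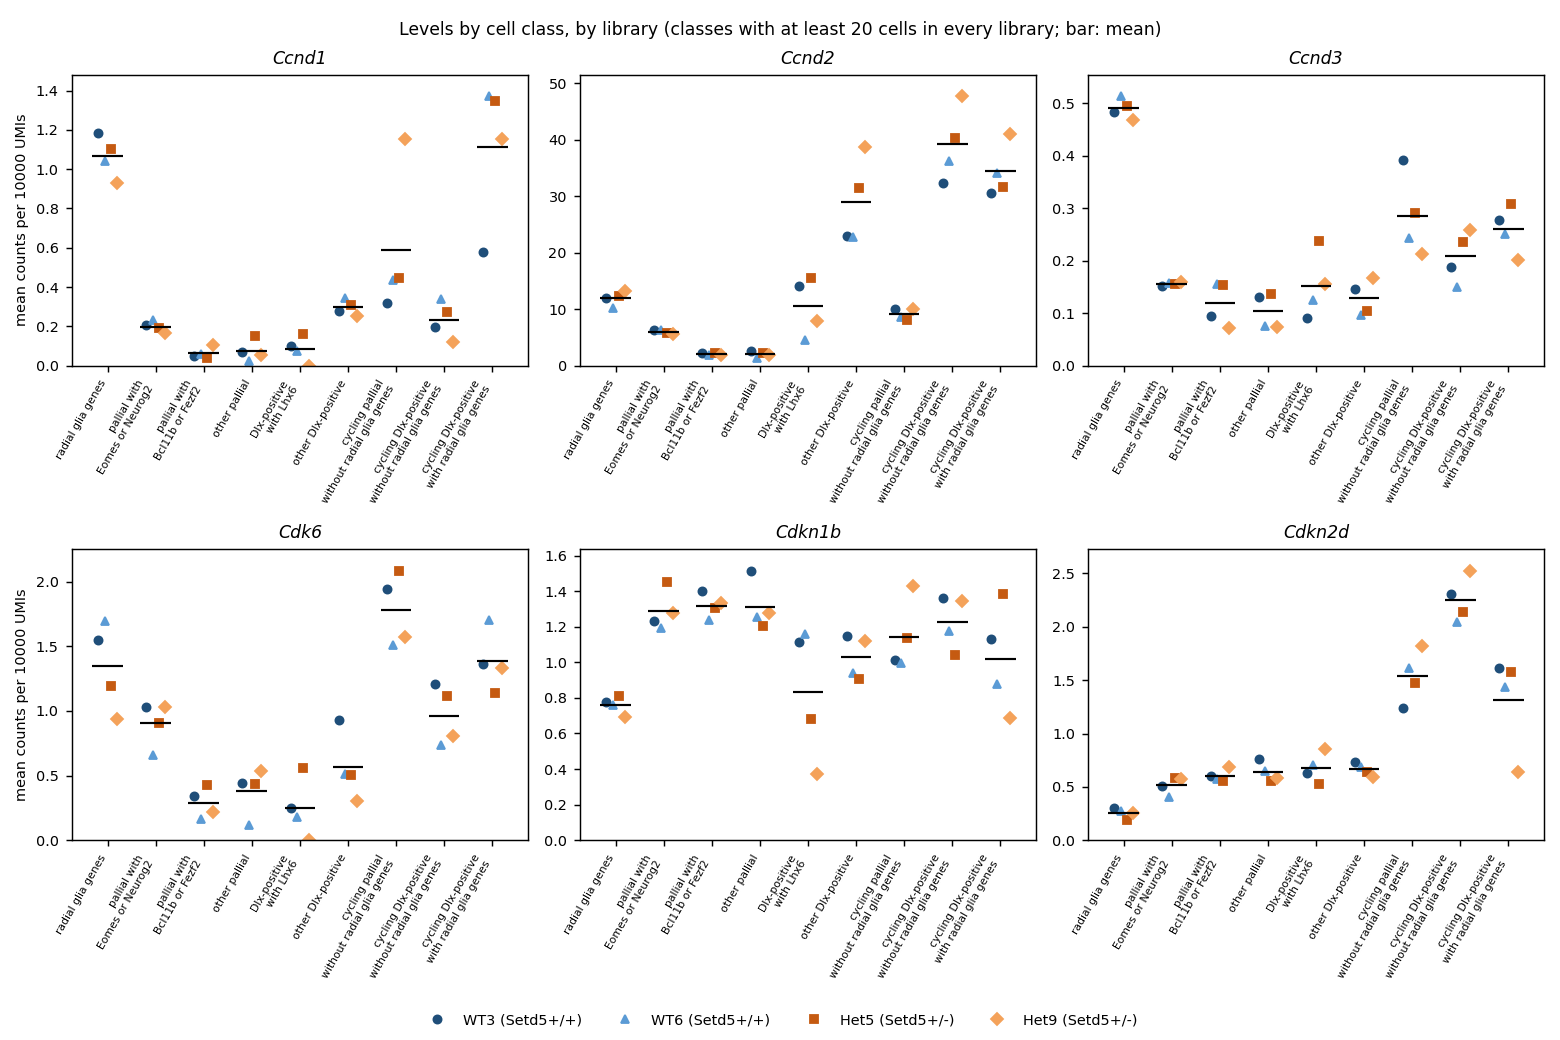
Mean counts per 10000 UMIs (y axis, from 0) of 6 genes in 9 classes of cells (x axis), with 1 point per library and a bar at the mean. Ccnd1 and Ccnd3 stand high in the non-cycling cells with radial glia genes, where Cdkn1b and Cdkn2d stand low with means of 0.760 and 0.256.

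Between the lineages, Ccnd2 was the member that differed most. In non-cycling cells it was 5.12-fold higher in Dlx-positive than in pallial cells on the log2(mean + 0.1) scale (2.36, SE 0.104, adjusted p = 2.1e-13), and in cycling cells 4.17-fold higher (2.06, SE 0.0622, adjusted p = 1.6e-24). All Dlx-positive values lay above all pallial ones in both comparisons. In non-cycling cells 8 members were tested and 3 were called, where 33.3% of all genes were called. Ccnd1 was higher in Dlx-positive cells by 1.06 (SE 0.118, adjusted p = 3.9e-07), but only by 0.19 when cells with S-phase or mitosis UMIs were left out (adjusted p = 0.622). Cdkn1b was lower by -0.37 (SE 0.0743, adjusted p = 0.00057) and kept the call in each of 14 alternatives. The difference of Cdk6 was -0.02 (SE 0.181, adjusted p = 0.943). With cells with S-phase or mitosis UMIs left out it was -1.07, at 0.727, 0.378, 0.218 and 0 in Dlx-positive cells. Pallial cells then measured 0.514, 0.595, 0.644 and 0.660, so the groups overlapped. Of 14 alternatives, 7 turned the sign of Cdk6 and 1 gained a call in the same direction.

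In cycling cells 6 of 9 tested members were called, where 26.9% of all genes were called. Besides Ccnd2, the genes higher in Dlx-positive cells were Cdkn2d by 0.59 (SE 0.102, adjusted p = 2.1e-05), Cdkn2c by 0.49 (SE 0.131, adjusted p = 0.0039) and Cdk4 by 0.22 (SE 0.0505, adjusted p = 0.0011). Top2a itself was higher there, at 12.1 against 5.33. Cdk6 was lower by -0.57 (SE 0.111, adjusted p = 0.00011), with the groups apart. Ccnd1 was lower by -0.57 (SE 0.212, adjusted p = 0.043) with overlapping groups, and 8 of 13 alternatives lost this call. The value was -0.15 without Het9 (adjusted p = 0.597), -0.45 without WT3 (adjusted p = 0.142) and -0.17 with cycling cells chosen by Mki67 (adjusted p = 0.544). The call of Cdkn2c was lost without WT3 (adjusted p = 0.059). Of the wider list, 4 of 15 tested genes were called higher and 2 lower in non-cycling Dlx-positive cells, and 6 of 25 higher and 1 lower in cycling ones. These counts lay near the shares of 33.3% and 26.9% over all genes, and the values that follow are those of the genes with the largest differences. Mycn, a driver of progenitor growth, was lower in both comparisons, by -0.87 in non-cycling and -1.06 in cycling cells. Cks1b was higher by 0.86 and 0.73, and Ccna2 by 0.61 and 0.80. In non-cycling cells Skp2, part of the ligase that degrades p27, was higher by 0.65 and E2f1 by 0.45, and in cycling cells E2f2 by 1.01 and Mybl2 by 0.73.

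For the genotypes, Setd5 was read first. In non-cycling pallial cells it measured 1.17 and 1.04 in the Setd5+/+ libraries and 0.507 and 0.554 in the Setd5+/- libraries, a difference of -0.94 (adjusted p = 0.00072). It was lower in both Setd5+/- libraries in each of the 4 groups, and called in all but cycling pallial cells (-0.76, adjusted p = 0.634). The 2 genotypes also differed in fetal sex. Xist, the X-inactivation RNA, measured 18.48 and 19.32 in the Setd5+/+ libraries and 0.0010 and 0.0185 in the Setd5+/- libraries in non-cycling pallial cells, and the Y-linked Ddx3y 0 and 0.0013 against 0.490 and 0.489. With both wild type fetuses on 1 side of this divide and both mutants on the other, sex and genotype cannot be told apart in any result that follows.

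In 3 of the 4 groups limma called none of the members. In cycling pallial cells the 9 tested members had differences from -0.24 (Ccnd3) to 0.52 (Ccnd1) with SEs from 0.0879 to 0.311, and 0 had an unadjusted p under 0.05. Over all genes 6 of 8046 (0.0746%) were called. In non-cycling pallial cells the 8 tested members lay between -0.10 (Cdk4) and 0.23 (Cdk6) with SEs from 0.0465 to 0.129, and again 0 had an unadjusted p under 0.05, where 0.102% of all genes were called. In cycling Dlx-positive cells all 10 members were tested, 2 had an unadjusted p under 0.05 and 0 were called, where 0.0803% of all genes were called. Ccnd2 was 1 of these, with 32.1 and 35.9 against 38.7 and 46.7, a difference of 0.32 (SE 0.0838, adjusted p = 0.679), which was called after thinning (0.36, adjusted p = 0.0034) and without WT6 (0.40, adjusted p = 0.00022). Rb1 was the other, with 0.176 and 0.253 against 0.313 and 0.439, a difference of 0.60 (SE 0.200, adjusted p = 0.993). The SEs bound what 2 fetuses per genotype could show. Of the genes called in these 3 groups, 4 of 6, 5 of 8 and 4 of 6 were assigned to the X or Y chromosome. Erdr1, called in both cycling groups, had no chromosome assigned and is not among those on X or Y.

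In non-cycling Dlx-positive cells 1 of 8 tested members, Ccnd2, was called, where 0.247% of all genes were called. Ccnd2 lies on chromosome 6, as does Setd5 (chr6:113077365-113153435). The part of sequence linked to the Setd5 allele in the genotype values of Ccnd2 was not tested. Ccnd2 measured 20.1 and 16.9 in the Setd5+/+ libraries and 25.7 and 31.8 in the Setd5+/- libraries, a difference of 0.63 (SE 0.113, adjusted p = 0.029). The call was lost in 4 of 12 alternatives: with no limit on low values (adjusted p = 0.325), with a gate of 1 UMI (adjusted p = 0.244), without WT6 (0.50, adjusted p = 0.172) and without Het9 (0.48, adjusted p = 0.311). Cdk6 measured 0.999 and 0.875 against 0.593 and 0.274, a difference of -1.02 (SE 0.228) that was not called (adjusted p = 0.119). It was called in 5 of 12 alternatives, among them without cells positive for both gate lists (-1.03, adjusted p = 0.0048). Cdkn1c, from the wider list, measured 3.76 and 3.13 against 0.918 and 0.649, a difference of -2.02 (SE 0.151, adjusted p = 1.6e-06), and was called in each of 12 alternatives.

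Part of the make-up of these cells did not overlap between the genotypes, with no test run. Cells with Zic1 or Zic4, genes known from septal progenitors, were 49 and 75 of the non-cycling Dlx-positive cells in the Setd5+/+ libraries and 29 and 3 in the Setd5+/- libraries (19.6% and 17.3% against 12.4% and 1.40%). In these cells Cdkn1c measured 10.4 and 8.53 in WT3 and WT6, 2.05 in Het5 and 0 in the 3 cells of Het9, and Cdk6 measured 1.52, 1.62, 0.614 and 1.10. The 4 radial glia genes summed to 1.16 and 1.28 in non-cycling Dlx-positive cells of the Setd5+/+ libraries and to 2.3 and 1.99 in those of the Setd5+/- libraries. Cells with Lhx6 overlapped between the genotypes (20.8% and 18.0% against 22.75% and 14.0%). The 2 erythroid genes Hba-a1 and Hbb-bs summed to 31.3, 32.7, 3.87 and 29.6, low in Het5 alone. The part of these differences in the values of Ccnd2, Cdk6 and Cdkn1c was not tested, other than by repeating the comparison within states. In the Dlx-positive cells with Lhx6, limma called none of 7 tested members, where 3 of 7523 genes were called. Ccnd2 measured 14.05 and 4.52 there against 15.6 and 7.91 in the Setd5+/- libraries. Cdkn1c measured 1.39 and 1.44 against 1.02 and 1.23 and was not called.

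Within the other Dlx-positive cells, which exclude those with radial glia genes, Ebf1, Lhx6, Zic1 or Zic4, Ccnd2 measured 23.0 and 22.7 against 31.4 and 38.7, a difference of 0.61 (SE 0.123, adjusted p = 0.0065), where 0.303% of all genes were called. Cdkn1c measured 1.90 and 1.18 against 0.773 and 0.648, a difference of -0.98 (SE 0.211, adjusted p = 0.013), which is smaller than over all non-cycling Dlx-positive cells. Cdk6 measured 0.928 and 0.514 against 0.506 and 0.306 and was not called (-0.68, SE 0.268, adjusted p = 0.989). Other genes moved in these cells too, with Fabp7, a radial glia gene, higher by 1.33, Nfix higher by 1.14, Isl1 lower by -0.95, and the erythroid genes Hba-a1 and Hbb-bs lower by -3.25 and -2.48. Their part in the values of Ccnd2 and Cdkn1c was not tested. In the non-cycling cells with radial glia genes, where 0.160% of all genes were called, limma called none of the 10 members, and 3 had an unadjusted p under 0.05. Ccnd2 there measured 12.01 and 10.2 against 12.4 and 13.2. Cdkn1c was called in these cells, with 3.47 and 2.61 against 0.703 and 0.566, a difference of -2.09 (SE 0.164, adjusted p = 3.5e-06). Zic1 (-1.20), Zic4 (-1.33), Fgf17 (-1.80), Meg3 (-1.06) and Nnat (-0.81) were lower in the same cells, while Neurog2 (0.95) and the erythroid genes Hba-a2 (1.67) and Hbb-bs (1.11) were higher, and their part in the Cdkn1c value was not tested.

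Whether the genotype difference was unequal between lineages was tested on Dlx-positive minus pallial values of the same library. In non-cycling cells Ccnd2 had a value of 0.70 (SE 0.119, adjusted p = 0.00032) and Cdk6 of -1.25 (SE 0.207, adjusted p = 0.00025), 2 of 8 tested members, where 0.381% of all genes were called. Both calls were lost without Het9 (0.43, adjusted p = 0.512, and -0.82, adjusted p = 0.074), with no limit on low values (adjusted p = 0.9 for both), with summed UMIs (adjusted p = 0.110 for both) and with a gate of 1 UMI (adjusted p = 0.504 and 0.512). Cdkn1c had a value of -2.06 (SE 0.155, adjusted p = 1.2e-13), and 1 of 12 alternatives, with no limit on low values, lost the call (adjusted p = 0.489). In cycling cells Ccnd2 was the 1 of 9 tested members called, at 0.43 (SE 0.0921, adjusted p = 0.0040), where 0.177% of all genes were called, and this call was lost in 7 of 12 alternatives, among them without WT3 (0.20, adjusted p = 0.9999) and without Het9 (0.39, adjusted p = 0.493). Of the 14 genes called in cycling cells, 9 had values below 0, among them Hbb-bs (-1.02), Hba-a1 (-1.26) and Lmo1 (-1.20). The 5 above 0 included Ccnd2 and Cdca7 (0.76). The part of these other genes in the Ccnd2 value was not tested. The values for non-cycling pallial cells were 4.41 and 4.63 against 4.67 and 3.94 for Ccnd2, and 1.84 and 2.56 against 2.36 and 2.11 for Cdkn1c, so the genotypes overlapped there.

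**Figure D5:**
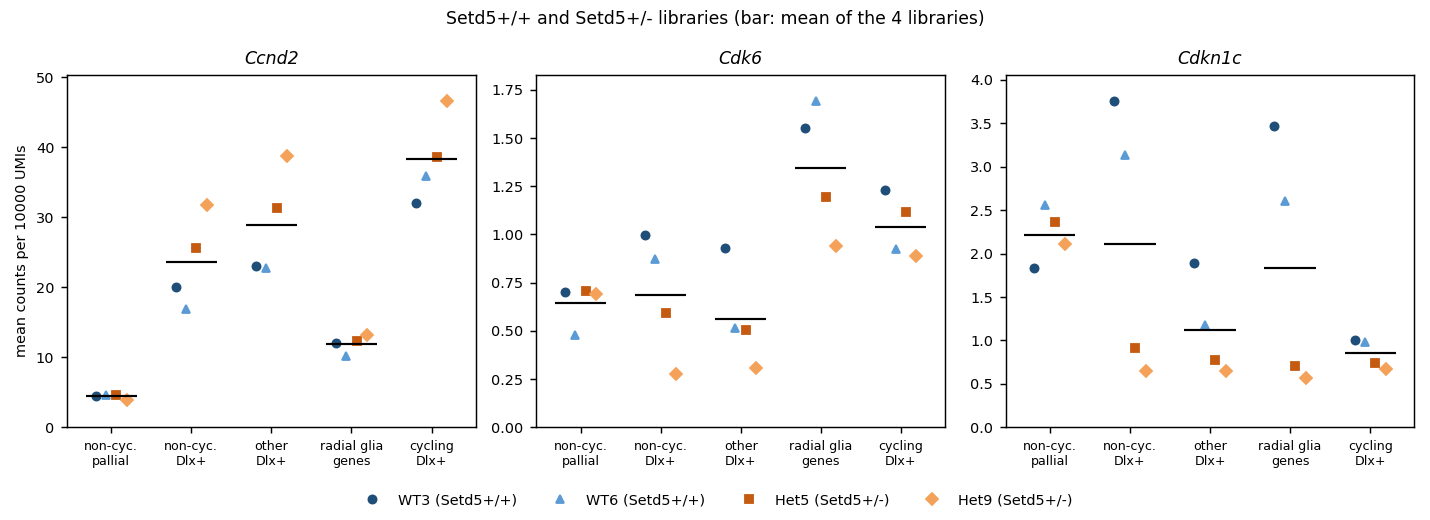
Mean counts per 10000 UMIs (y axis, from 0) of Ccnd2, Cdk6 and Cdkn1c in 5 groups of cells (x axis), with 1 point per library, blue for Setd5+/+ and orange for Setd5+/-, and a bar at the mean of the 4 libraries. Ccnd2 is higher and Cdkn1c lower in both Setd5+/- libraries among non-cycling Dlx-positive and other Dlx-positive cells, while the genotypes overlap in pallial cells.

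The genes whose levels most resembled those of 9 members (Cdkn1a was under the limit on low values) were found by Pearson's r over the 16 values of 4 groups in 4 libraries, among 7990 other genes. The 16 values share 4 libraries and gate genes, so r is given as a description. Cdkn2c was most like Ccna2 (0.99), Spc25 (0.99) and Dbf4 (0.99), and Cdkn2d most like Prc1 (0.99), Ube2t (0.99) and Fbxo5 (0.99). Ccnd2 was most like Tmem123, Dleu7 and Cdca7 (0.98 each). Cdk4 was most like Cox8a (0.97), Smc1a (0.96) and Ptma (0.95). The nearest genes of Ccnd3 were Ost4 (0.92), Ctnna1 (0.91) and Tmem97 (0.91), and those of Cdk6 were Mrpl33 (0.91), Etaa1 (0.87) and Prkar2a (0.86). Ccnd1 was most like Ddah1 (0.90), Ddx27 (0.88) and Mcmbp (0.86), and Rb1 most like Srprb (0.84), Rpia (0.81) and Sgcb (0.80). Of these 9, likeness was lowest for Cdkn1b, whose nearest genes were Sik2 (0.78), Mpzl1 (0.74) and Kri1 (0.74).

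The genes lie at these positions in GENCODE M21 on GRCm38, the assembly that mm10 names. Ccnd1 is at chr7:144929931-144939925, Ccnd2 at chr6:127125162-127152193, Ccnd3 at chr17:47505051-47599691, Cdk4 at chr10:127063534-127067920 and Cdk6 at chr5:3341485-3531008. Cdkn1a is at chr17:29090976-29100727, Cdkn1b at chr6:134920401-134925513, Cdkn2c at chr4:109660876-109667189, Cdkn2d at chr9:21288410-21291407 and Rb1 at chr14:73183673-73325822. The 3′ reads of a gene count its transcripts together and do not tell isoforms apart.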

How the data were processed

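Single-cell RNA-Seq of sorted CD24+ CD45- cortical cells from 4 fetuses was analysed. The authors deposited 1 table in natural log units: each gene's UMIs in a cell, scaled to 10000 per cell, plus 1. It was made on genome build mm10 with Cell Ranger 2.1, followed by Seurat 2.3.0, going by the notes of the submitters on processing. No source used here states the annotation or the cell filters. Undoing the log gave whole multiples of 1 UMI for 100% of 14848520 values above 0 (tolerance 0.001). Libraries are named by the prefix of the cell names, which gives the genotype but no replicate number.

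Means of counts per 10000 over the cells of a library were tested as log2(mean + 0.1) with limma 3.58.1 (trend option) in R 4.3.3. A library term was used outside the genotype comparisons, and genes needed a mean of at least 0.1. Classes of under 20 cells in a library were not ordered. No doublet caller was run, and leaving out cells positive for both gate lists was an alternative. The other alternatives changed the pseudocount, filter, scaling, gates, cycling gene, depth, shared barcodes or libraries, and 1 planned for cycling Dlx-positive cells is not reported here. Python 3.11.15, numpy 2.4.6, pandas 2.3.3 and matplotlib 3.10.9 were used, and the fits were tested on simulated data. The members, gates and gene lists were chosen with earlier results of these data known. By rule the text names every member, up to 5 called genes of largest difference from the list of 30, and the 3 genes most like each member. The division of cycling cells by radial glia genes was added to that plan.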

Additional observations from a re-analysis of the deposited data

Results flagged for a closer look

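Some values differed between the 2 lineages by a test of the difference itself (limma, adjusted p under 0.05). For cycling against non-cycling cells these were Ccnd1 (-1.63), Ccnd2 (-0.30), Cdkn1b (0.47) and, from the wider pathway list, Tfdp2 (0.56), each as Dlx-positive minus pallial on the log2 scale. The call did not hold in 2 of 14 alternatives for Ccnd1, 10 of 14 for Ccnd2 and 5 of 14 for Cdkn1b. For Setd5+/- against Setd5+/+ libraries these were Ccnd2 (0.70), Cdk6 (-1.25) and Cdkn1c (-2.06) in non-cycling cells and Ccnd2 (0.43) in cycling cells. In non-cycling cells the call was lost in 4 of 12 alternatives for Ccnd2, 4 of 12 for Cdk6 and 1 of 12 for Cdkn1c, and in cycling cells in 7 of 12 for Ccnd2. Fetal sex cannot be told apart from genotype in the second set. Ccnd2 lies on chromosome 6 with Setd5, and the part of linked sequence in its values was not tested.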

How the results depend on the processing

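No paired analysis was possible because the cell names carry no replicate number that could pair Setd5+/+ with Setd5+/- libraries; comparisons within libraries kept a library term. Over all alternatives 680 values kept direction and side of the threshold, 35 gained a call, 59 lost one and 28 turned, and the causes were not tested. With 2 fetuses per genotype, leaving out 1 library of a genotype comparison assumes that the lone library left varies like the others. Rb1 turned most often: between cycling and non-cycling pallial cells it was -0.0176 with the gate of 1 UMI, -0.13 thinned, -0.18 by Mki67, -0.0290 against non-cycling cells without S-phase and mitosis UMIs (the strict side) and -0.0935 without Het5 to 0.136 without Het9; in Dlx-positive cells -0.0761 on the strict side; for the lineage difference of these -0.0471 on the strict side and -0.0293 without Het9 to 0.272 without Het5; and between lineages in cycling cells 0.0703 thinned and 0.0028 by Mki67. In Dlx-positive cycling against non-cycling cells, Ccnd1 was 1.04 on the strict side, and Ccnd3 -0.0071 by Mki67 but 0.73 and called on the strict side. For the lineage difference of cycling cells, the strict side gave 0.20 for Ccnd2, 0.50 for Cdk6 and -0.17 for Cdkn1c, which was -0.19 without Het9, -0.09 without Het5 and 0.55 without WT3. Between lineages in non-cycling cells, the strict side gave -0.21 for Ccnd3, -0.13 for Cdk4 and -1.07 for Cdk6. Otherwise Cdk6 was 0.0178 with pseudocount 1, 0.29 with summed UMIs, 0.0260 with the gate of 1 UMI, 0.15 thinned and 0.20 by Mki67. Without 1 library it was from -0.28 without WT6 to 0.33 without Het9 (0.04 without Het5). Cdkn1c was from -0.85 without WT3 to 0.0029 without Het9. In cycling cells Cdkn1c was 0.0921 with the gate of 1 UMI.

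Counts of called members moved as follows. The 3 of the cycling difference became 5 with pseudocount 1, 0 with no filter, 6 with summed UMIs and 1 to 3 when 1 library was left out, and the 3 of non-cycling lineages became 6 by Mki67. The genotype count in cycling Dlx-positive cells became 1 thinned and 0 to 1 without 1 library, and in cycling pallial cells 0 to 1. The 1 in non-cycling Dlx-positive cells became 0 with no filter or the gate of 1 UMI, 2 with summed UMIs, thinned, without shared barcodes or without cells positive for both lists, and 0 to 2 without 1 library. The 2 of the non-cycling genotype difference became 0 with no filter, summed UMIs or the gate of 1 UMI and 0 to 2 without 1 library. The 1 of the cycling genotype difference became 0 with pseudocount 0.01, no filter, summed UMIs, the gate of 1 UMI or no cells positive for both lists, and 0 to 2 without 1 library.

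Over all genes, thinning gave 1572 calls between cycling and non-cycling pallial cells, 212 for the cycling difference (76 with no filter, 343 to 470 without 1 library) and 1378 between cycling lineages. The strict side gave 1637 between non-cycling lineages. Genotype calls in cycling pallial cells were 18 with no filter, 2 thinned, 11 without cells positive for both lists and 6 to 30 without 1 library, in non-cycling pallial cells 7 to 23, and in cycling Dlx-positive cells 12 thinned and 4 to 34. In non-cycling Dlx-positive cells they were 11 with pseudocount 0.01, 7 with no filter or the gate of 1 UMI, 48 with summed UMIs, 30 thinned, 29 without shared barcodes, 36 without cells positive for both lists and 9 to 49 without 1 library. For the non-cycling genotype difference they were 19, 0, 7, 1 and 12 (pseudocount 0.01, no filter, summed UMIs, gate of 1 UMI, thinned) and 23 to 43 without 1 library, and for the cycling one 1, 0, 2, 1 and 3, 4 without cells positive for both lists, and 3 to 24 without 1 library.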

Other observations

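The other INK4 genes, Cdkn2a and Cdkn2b, were at or near 0. Cdkn2a was at 0 in 3 of the 4 cell groups in all 4 libraries and reached at most 0.0026 counts per 10000 UMIs in non-cycling pallial cells, and Cdkn2b reached at most 0.0064 in the same cells. Neither passed the limit on low values in any comparison.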
